A study of Mus musculus with 36 samples.

Results

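Cirbp and Rbm3 encode a pair of closely related cold-inducible RNA-binding proteins, and their transcripts were followed here in brain and liver of mice kept awake. All probe sets whose symbol field in the platform annotation contains Cirbp or Rbm3 were taken, and there were 3 of them among 45101 on the array. Cirbp had 1 probe set, 1416332_at. The other 2, 1422660_at and 1429169_at, carry both Rbm3 and its pseudogene Rbm3-ps in their symbol field, and 0 probe sets carry Rbm3 alone. Their values are therefore given for Rbm3/Rbm3-ps and are not credited to either gene. All 3 probe sets were measured on every array, and none was lost to a filter.

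Male C57BL/6J, AKR/J and DBA/2J mice aged 12 to 13 weeks were deprived of sleep for 6 h beginning at light onset, or stayed in their home cages as controls, and whole brain and liver were taken at Zeitgeber time (ZT) 6, that is 6 h after light onset. The 12 groups, which are sleep-deprived and control mice of each of the 3 strains in each of the 2 tissues, held 3 arrays each. Each array was hybridised with RNA pooled from 3 mice, so the spread between arrays is that between pools and not between single animals. The labels name no transgene or mutation for these mice, and all 3 strains are inbred. For AKR/J control arrays 2 and 3 in each tissue the title gives ZT 6 and the source name ZT 0, and they were kept as ZT 6.

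CIRBP and RBM3 are small proteins with a single RNA recognition motif followed by a glycine-rich stretch. Both are induced when mammalian cells are cooled mildly and are reduced when cells are warmed, and both bind messenger RNAs and influence their processing, stability or translation. In the liver of mice Cirbp is known to follow the daily rhythm of body temperature, and CIRBP has been linked to the level of Clock transcripts, while RBM3 is known in the mouse brain for its part in keeping synapses after cooling. No body or brain temperature was analysed here.

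Since Cirbp transcripts fell in every group of mice kept awake, the stretch that lies just before a start of the gene is shown. RefSeq's table for the mouse assembly GRCm38.p6 gives 2 start windows for Cirbp, and the first listed, which lies upstream, is printed. It is the 250 bases before that start, on the plus strand, at chr10:80167589-80167838, with the letters of the GC box (GGGCGG on either strand), a motif bound by Sp1 and related factors, in capitals.
Cirbp: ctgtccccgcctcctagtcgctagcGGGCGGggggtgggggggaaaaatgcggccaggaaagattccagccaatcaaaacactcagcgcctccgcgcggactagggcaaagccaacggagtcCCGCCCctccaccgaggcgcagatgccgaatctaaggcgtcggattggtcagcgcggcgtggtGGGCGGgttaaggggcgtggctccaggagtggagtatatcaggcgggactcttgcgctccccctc
The GC boxes lie 225 to 220, 128 to 123 and 65 to 60 bases before the start, the middle one on the opposite strand. A GC box was found in 32.7% of 32851 such windows of all genes, and 3 or more in 8.47%. The G and C content was 65.6%, against a median of 52.4% over all windows. The letters TTCNNGAA, a short form of the heat shock element that reads the same on both strands, were found 0 times in this window and in 7.17% of all windows. The E-box CACGTG, which also reads the same on both strands, was found 0 times here and in 6.02% of all windows. The other window of Cirbp, at chr10:80167921-80168170 on the same strand, held 4 GC boxes, 0 heat shock elements and 0 E-boxes. The matches describe these letters only and, in the printed window, none of the motifs overlaps another.

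All values are log2 expression values made with RMA, so a difference of 1 is a 2-fold change. RMA values of different probe sets, or of brain and liver, cannot be set against each other as levels, and only changes are compared across them. Limma's test, adjusted by the Benjamini-Hochberg method over 45037 probe sets, was used and a change passed where its adjusted p was under 0.05; values after ± are standard errors unless marked as SDs. In bulk tissue, fewer cells of a type and less RNA per cell cannot be told apart. As a rough check of the tissue labels, given only as a description since the tissues appear to have been normalised apart, the mean level of 11 neuronal markers was 10.54 to 10.79 on brain arrays and 3.63 to 3.95 on liver arrays. That of 9 hepatocyte markers was 13.68 to 14.04 on liver arrays and 5.13 to 5.57 on brain arrays. A few arrays stood apart. In brain, sleep-deprived arrays C57BL/6J 1, AKR/J 3 and DBA/2J 2 had a narrow spread of values (SD over probe sets 1.90, 1.96 and 1.93). The other brain arrays had 1.97 to 2.05, so AKR/J 3 lay close to them. Brain control arrays C57BL/6J 2 and DBA/2J 3 had a raised difference between the 3' and 5' beta-actin probe sets, a sign of RNA quality (log2 1.13 and 0.98, where the others had 0.58 to 0.89). In liver this difference was 2.16 on control array DBA/2J 1 and 0.96 to 1.45 on the others.

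In brain, the first question was how Cirbp responded to sleep loss. Its log2 values were 6.70, 6.77 and 6.98 in sleep-deprived C57BL/6J mice, against 7.87, 7.75 and 7.90 in their controls. They were 6.97, 6.82 and 6.88 in sleep-deprived AKR/J mice, against 8.51, 8.15 and 8.20 in AKR/J controls. They were 6.98, 6.32 and 6.70 in sleep-deprived DBA/2J mice, against 8.26, 8.06 and 8.13 in DBA/2J controls. All 9 sleep-deprived arrays were below all 9 control arrays in brain, a separation that 0.275% of probe sets showed in this direction. Averaged over strains, Cirbp fell by 1.30 ± 0.08 on the log2 scale, which is 2.46-fold lower in sleep-deprived mice (adjusted p = 1.588e-07). In this comparison 1.73% of probe sets passed in either direction and 1.04% were lower, and Cirbp had the second largest fall of them all.

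Of the Rbm3/Rbm3-ps probe sets, 1422660_at gave 8.52, 8.82 and 8.81 in sleep-deprived C57BL/6J brains, against 9.73, 9.60 and 9.70 in controls. In AKR/J it gave 8.39, 8.22 and 8.46 in sleep-deprived brains, against 9.89, 9.65 and 9.76 in controls. In DBA/2J it gave 8.38, 7.86 and 8.51 in sleep-deprived brains, against 9.89, 9.80 and 9.82 in controls. Again the sleep-deprived arrays were all below the control arrays, and the lowest value, on sleep-deprived array DBA/2J 2, came from the array on which Cirbp was lowest too, 1 of those of narrow spread. Its mean effect was -1.32 ± 0.08, which is 2.50-fold lower in sleep-deprived mice (adjusted p = 1.261e-07), the largest fall of the 45037 probe sets. Without the 5 brain arrays that stood apart, the mean effects were -1.24 for Cirbp (adjusted p = 2.423e-06) and -1.26 for 1422660_at (adjusted p = 2.75e-07).

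The remaining Rbm3/Rbm3-ps probe set, 1429169_at, went the other way. It gave 4.28, 4.82 and 5.24 in sleep-deprived C57BL/6J brains, against 4.17, 4.05 and 4.14 in controls. It gave 4.91, 5.01 and 4.73 in sleep-deprived AKR/J brains, against 4.10, 4.37 and 4.18 in controls. In DBA/2J it gave 4.91, 4.90 and 5.21 in sleep-deprived brains, against 4.16, 4.32 and 4.54 in controls. Within each strain the sleep-deprived arrays were above the controls, a pattern shown by 4.15% of probe sets in C57BL/6J, by 5.5% in AKR/J and by 3.82% in DBA/2J. Pooled over strains the ranges overlapped, because sleep-deprived array C57BL/6J 1, of narrow spread, lay below 3 control arrays of the other strains. The mean effect was a rise by 0.67 ± 0.10, or 1.59-fold (adjusted p = 0.002175; 0.688% of probe sets were called higher), and it was 0.81 without the 5 arrays that stood apart (adjusted p = 0.0001325). With AKR/J left out the rise, 0.66, did not pass (adjusted p = 0.1085). The mean of this probe set lay near the middle of all probe sets, with 46.3% of them below it in brain.

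The changes of the Rbm3/Rbm3-ps probe sets were thus unequal on the same arrays. The change of 1429169_at exceeded that of 1422660_at by 1.98 in brain (exact permutation test within strains, two-sided, p = 0.00025, the smallest the 8000 regroupings can give; 0.0005 after adjustment over 4 such comparisons). The transcript that each of them detects was not analysed. Rbm3os, an opposite-strand neighbour of Rbm3, has a probe set of its own that is no member here, and its log2 difference was 0.11 in brain (adjusted p = 0.598) and -0.03 in liver (adjusted p = 0.8392).

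**Figure D1:**
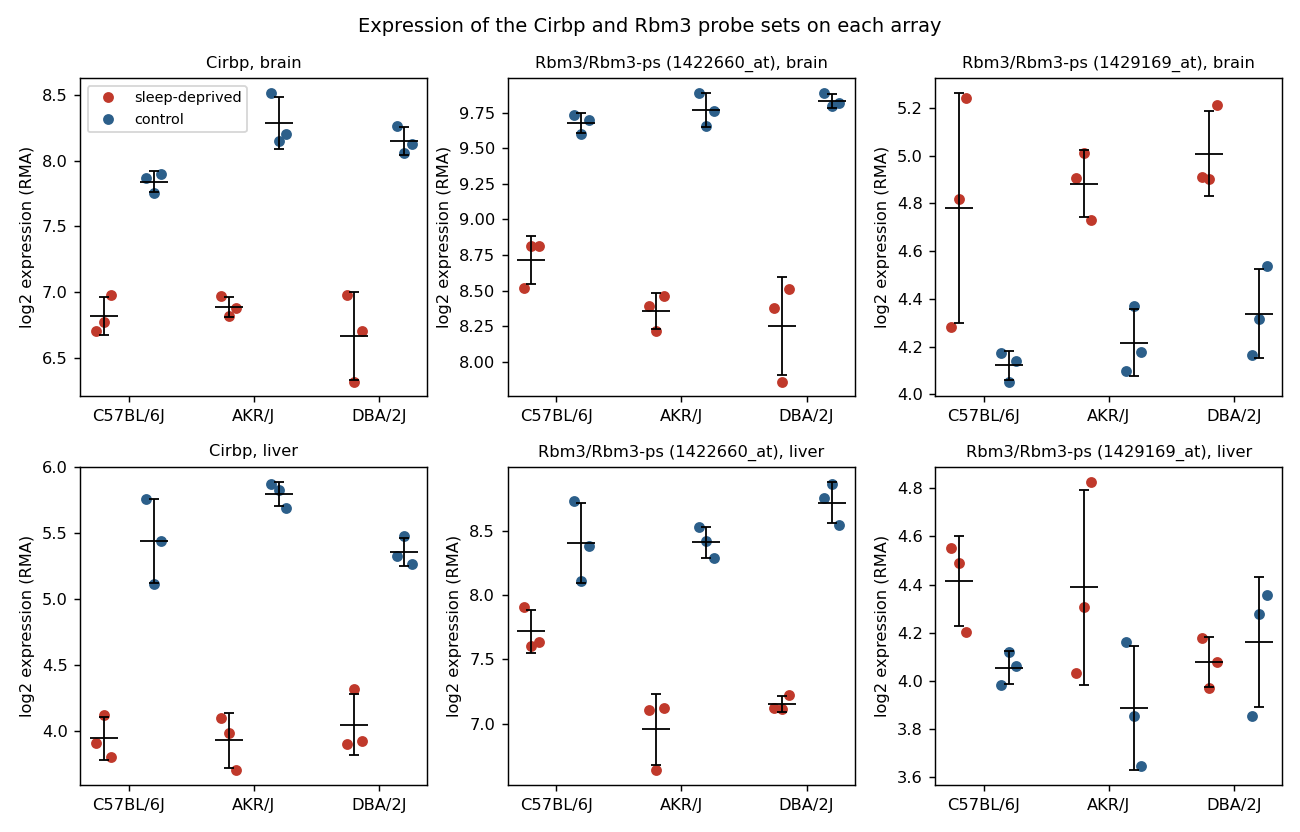
Log2 expression (RMA) of the Cirbp probe set and both Rbm3/Rbm3-ps probe sets on each array, with brain in the upper row and liver in the lower row; points are arrays, with sleep-deprived (red) left of control (blue) in each strain, and bars give the group mean ± SD of 3 arrays. Each panel has its own axis range, and the sleep-deprived and control arrays of Cirbp and 1422660_at are apart in all strains and both tissues, while those of 1429169_at overlap in AKR/J and DBA/2J liver.

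In liver, the same question was asked of an organ outside the brain. Cirbp gave 3.91, 4.13 and 3.81 in sleep-deprived C57BL/6J livers, against 5.76, 5.12 and 5.44 in controls. In AKR/J it gave 4.10, 3.98 and 3.70 in sleep-deprived livers, against 5.88, 5.83 and 5.69 in controls. In DBA/2J it gave 3.90, 4.32 and 3.93 in sleep-deprived livers, against 5.33, 5.48 and 5.27 in controls. All 9 sleep-deprived arrays were below all 9 control arrays, which 0.0444% of probe sets, 20 in all, showed in this direction. Averaged over strains Cirbp fell by 1.56 ± 0.09, or 2.94-fold (adjusted p = 2.411e-09). Of all probe sets 3.6% passed in liver, 2.4% higher and 1.21% lower, and this was the fourth largest fall. The sleep-deprived means of 3.93 to 4.05 lay close to the median of all probe sets in liver, 4.10, and RMA compresses changes of dim probe sets.

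Among the Rbm3/Rbm3-ps probe sets, 1422660_at gave 7.91, 7.61 and 7.64 in sleep-deprived C57BL/6J livers, against 8.73, 8.11 and 8.38 in controls. In AKR/J it gave 7.11, 6.63 and 7.12 in sleep-deprived livers, against 8.53, 8.42 and 8.29 in controls. In DBA/2J it gave 7.12, 7.11 and 7.22 in sleep-deprived livers, against 8.76, 8.86 and 8.54 in controls. The groups did not overlap within or across strains, and the sleep-deprived C57BL/6J livers lay closest to the controls. The mean fall was 1.24 ± 0.09, or 2.36-fold (adjusted p = 6.328e-08), the sixth largest.

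The values of 1429169_at in liver were 4.55, 4.49 and 4.20 in sleep-deprived C57BL/6J mice, against 3.98, 4.12 and 4.06 in controls. They were 4.03, 4.31 and 4.83 in sleep-deprived AKR/J mice, against 4.16, 3.85 and 3.65 in controls. They were 4.18, 3.97 and 4.08 in sleep-deprived DBA/2J mice, against 3.85, 4.28 and 4.36 in controls. The groups overlapped in AKR/J and DBA/2J, and in C57BL/6J the sleep-deprived arrays were above the controls, as for 6.95% of probe sets. In single strains the values were 0.36 for C57BL/6J, 0.50 for AKR/J and -0.09 for DBA/2J, and none passed. The mean effect of 0.26 ± 0.10 did not pass (adjusted p = 0.1954). Its change exceeded that of 1422660_at on the same arrays by 1.50 (exact permutation test within strains, p = 0.00025, the smallest possible, and 0.0005 adjusted). Since the mean effect of 1422660_at itself was -1.24 in liver, this result does not show a change of 1429169_at.

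Liver and brain were then set against each other in their changes, in a fit over all 36 arrays in which 1.38% of probe sets differed. The labels do not say whether brain and liver pools came from the same mice, and the fit treated all 36 arrays as independent. The liver effect minus the brain effect was -0.26 ± 0.12 for Cirbp (adjusted p = 0.4002), 0.08 ± 0.12 for 1422660_at (adjusted p = 0.8376) and -0.41 ± 0.15 for 1429169_at (adjusted p = 0.219). No difference between the tissues passed for the members, which does not show that they responded alike. Without the 6 arrays that stood apart, the difference of 1429169_at was -0.61 and passed (adjusted p = 0.02196).

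**Figure D2:**
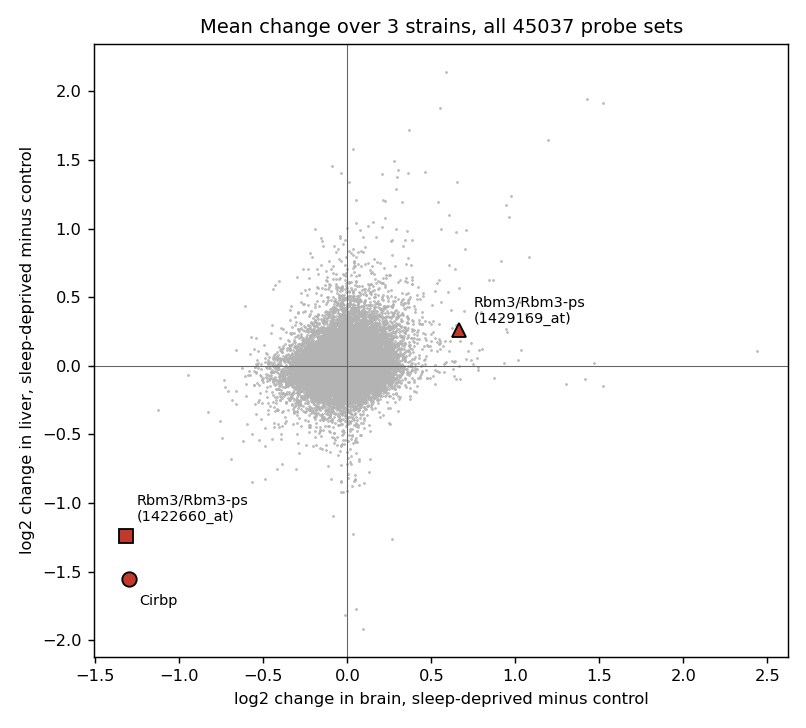
Mean change over 3 strains (log2, sleep-deprived minus control) in brain on the horizontal axis and in liver on the vertical axis, for all 45037 probe sets (grey points) and the 3 members (red, circle for Cirbp). Cirbp (-1.30 in brain and -1.56 in liver) and 1422660_at (-1.32 and -1.24) lie together at the lower left, and 1429169_at (0.67 and 0.26) lies on the right.

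By strain, the falls of Cirbp and 1422660_at passed in all 3 strains in brain. The Cirbp change was -1.02 ± 0.14 for C57BL/6J (adjusted p = 0.01008), -1.40 ± 0.14 for AKR/J (adjusted p = 0.000107) and -1.48 ± 0.14 for DBA/2J (adjusted p = 7.255e-05). That of 1422660_at was -0.96 ± 0.14 for C57BL/6J (adjusted p = 0.01275), -1.41 ± 0.14 for AKR/J (adjusted p = 0.000107) and -1.58 ± 0.14 for DBA/2J (adjusted p = 4.319e-05). Few probe sets passed in a single strain, 0.0377% for C57BL/6J, 0.3% for AKR/J and 0.104% for DBA/2J. The smallest of the falls was that of C57BL/6J for both probe sets, but the strain by sleep deprivation interaction had an adjusted p of 1 for both, and 0 of 45037 probe sets passed it in brain, where 1005 had an unadjusted p under 0.05; limma's unadjusted p was 0.07213 for Cirbp and 0.01473 for 1422660_at. The C57BL/6J falls did not pass when control array 1, control array 3 or sleep-deprived array 1 of this strain was left out, and without control array 1 the values were -1.01 for Cirbp (adjusted p = 0.09709) and -0.94 for 1422660_at (adjusted p = 0.1119). The values of 1429169_at were 0.66 for C57BL/6J (adjusted p = 0.5485), 0.67 for AKR/J (adjusted p = 0.2124) and 0.67 for DBA/2J (adjusted p = 0.2548), so none passed in a strain alone. That in AKR/J passed without sleep-deprived array C57BL/6J 1 (adjusted p = 0.03573). This array is of another strain, so the AKR/J value stayed at 0.67 and only its test changed.

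In liver the Cirbp change was -1.49 ± 0.15 for C57BL/6J (adjusted p = 4.062e-05), -1.87 ± 0.15 for AKR/J (adjusted p = 6.96e-07) and -1.31 ± 0.15 for DBA/2J (adjusted p = 0.0001491). That of 1422660_at was -0.69 ± 0.15 for C57BL/6J (adjusted p = 0.03822), -1.46 ± 0.15 for AKR/J (adjusted p = 3.526e-05) and -1.57 ± 0.15 for DBA/2J (adjusted p = 1.785e-05). All of these passed, beside 0.615% of probe sets for C57BL/6J, 0.711% for AKR/J and 0.628% for DBA/2J. The fall of 1422660_at in C57BL/6J liver did not pass when any 1 of 6 arrays was left out (C57BL/6J sleep-deprived 2 or 3, C57BL/6J control 1 or 3, DBA/2J sleep-deprived 1, AKR/J control 2), and without C57BL/6J control array 1 its value was -0.53 (adjusted p = 0.228). For this probe set the effect in AKR/J minus that in C57BL/6J was -0.77 ± 0.21 (adjusted p = 0.4525; 0.0222% of probe sets passed), and that in DBA/2J minus that in C57BL/6J was -0.88 ± 0.21 (adjusted p = 0.5975; 0.0178% passed). For the interaction 1422660_at had an adjusted p of 0.3195 (0.000979 unadjusted) and Cirbp of 0.7241 (0.04369 unadjusted), while 15 probe sets, 0.0333%, passed. A difference between strains in the response was therefore not shown for either probe set.

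**Figure D3:**
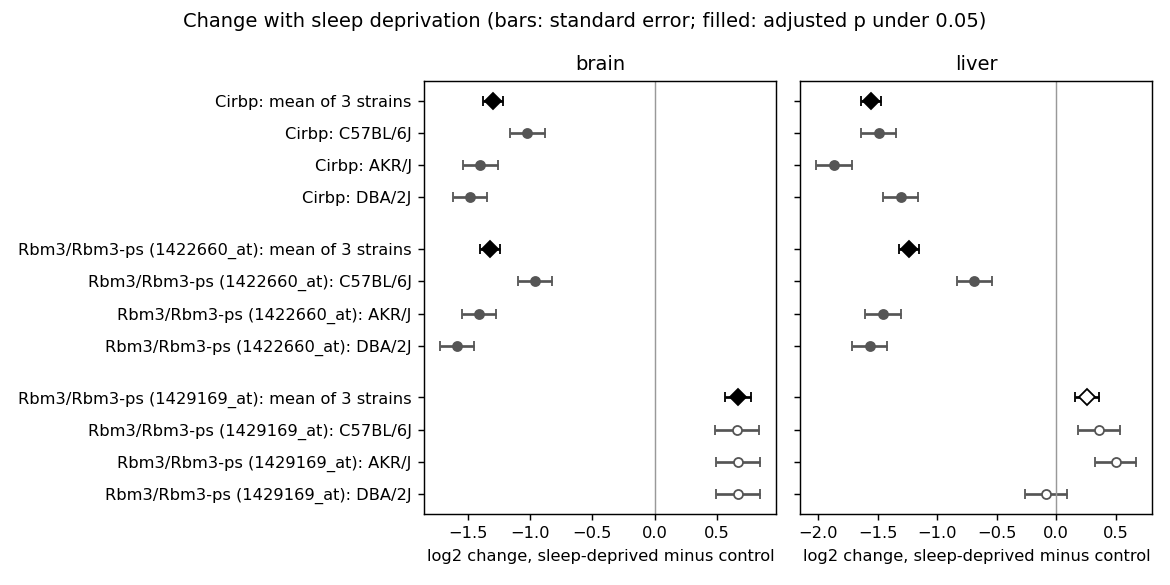
Change with sleep deprivation (log2, sleep-deprived minus control) of the 3 probe sets in brain (left) and liver (right), as the mean of 3 strains (diamonds) and in each strain (circles); bars are standard errors from limma and filled symbols passed the threshold. The falls of Cirbp and 1422660_at passed in every strain and tissue, from -0.69 to -1.87, and the only change of 1429169_at that passed was its mean rise of 0.67 in brain.

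The groups were then put in order of their levels. For Cirbp in brain the group means ± SD were 6.89 ± 0.07 (AKR/J), 6.82 ± 0.14 (C57BL/6J) and 6.67 ± 0.33 (DBA/2J) under sleep deprivation, and 8.29 ± 0.20 (AKR/J), 8.15 ± 0.10 (DBA/2J) and 7.84 ± 0.08 (C57BL/6J) in controls (n = 3 arrays each). Neighbours in this order overlapped, except DBA/2J and C57BL/6J controls and the step to the sleep-deprived groups. The share of all probe sets that separated strains in this way was not counted. The AKR/J minus C57BL/6J difference among controls, 0.45 ± 0.14, did not pass (adjusted p = 0.1513), but it did without the arrays of narrow spread (adjusted p = 0.03254). Those arrays are all sleep-deprived, so the difference itself stayed at 0.45 and only its test changed. In liver the Cirbp means were 4.05 ± 0.23 (DBA/2J), 3.95 ± 0.16 (C57BL/6J) and 3.93 ± 0.21 (AKR/J) under sleep deprivation, and 5.80 ± 0.09 (AKR/J), 5.44 ± 0.32 (C57BL/6J) and 5.36 ± 0.11 (DBA/2J) in controls. There all neighbours overlapped except at the step between conditions, and no strain difference of Cirbp passed.

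For 1422660_at in brain the means came to 8.72 ± 0.17 (C57BL/6J), 8.36 ± 0.12 (AKR/J) and 8.25 ± 0.35 (DBA/2J) under sleep deprivation, and 9.83 ± 0.05 (DBA/2J), 9.77 ± 0.12 (AKR/J) and 9.68 ± 0.07 (C57BL/6J) in controls. In liver they were 7.72 ± 0.17 (C57BL/6J), 7.15 ± 0.06 (DBA/2J) and 6.96 ± 0.28 (AKR/J) under sleep deprivation, and 8.72 ± 0.16 (DBA/2J), 8.41 ± 0.12 (AKR/J) and 8.41 ± 0.31 (C57BL/6J) in controls. The sleep-deprived C57BL/6J arrays lay above those of the other strains without overlap in both tissues, and liver controls of DBA/2J lay above those of AKR/J. The other neighbours within a condition overlapped. In brain the separation was slight, with the lowest sleep-deprived C57BL/6J array at 8.522 and the highest sleep-deprived DBA/2J array at 8.515. Such separations between strains were not counted over all probe sets, so they are given as a description only. Of the strain differences tested for the 3 probe sets in each tissue and condition, 2 passed, both of 1422660_at in sleep-deprived liver. AKR/J minus C57BL/6J was -0.76 ± 0.15 (adjusted p = 0.003049; 6.45% of probe sets passed), and DBA/2J minus C57BL/6J was -0.56 ± 0.15 (adjusted p = 0.02735; 6.12% passed). The DBA/2J difference did not pass when any 1 of 5 sleep-deprived arrays was left out (C57BL/6J 1 or 3, or DBA/2J 1, 2 or 3), and without C57BL/6J 1 it was -0.47 (adjusted p = 0.1303). In brain the matching differences, -0.36 and -0.46, did not pass (adjusted p = 0.3101 and 0.1227), though the first did without the arrays of narrow spread (-0.51, adjusted p = 0.009768).

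The group means of 1429169_at in brain were 5.01 ± 0.18 (DBA/2J), 4.88 ± 0.14 (AKR/J) and 4.78 ± 0.48 (C57BL/6J) under sleep deprivation, and 4.34 ± 0.19 (DBA/2J), 4.22 ± 0.14 (AKR/J) and 4.12 ± 0.06 (C57BL/6J) in controls. In liver they came to 4.41 ± 0.19 (C57BL/6J), 4.39 ± 0.40 (AKR/J) and 4.08 ± 0.10 (DBA/2J) under sleep deprivation, and 4.16 ± 0.27 (DBA/2J), 4.06 ± 0.07 (C57BL/6J) and 3.89 ± 0.26 (AKR/J) in controls. Every neighbour in both orders overlapped the next, and no strain difference passed. Over all probe sets, the AKR/J minus C57BL/6J difference passed for 1.81% in sleep-deprived brain, 2% in brain controls and 5.09% in liver controls. DBA/2J minus C57BL/6J passed for 2.03% in sleep-deprived brain, 1.9% in brain controls and 5.57% in liver controls. DBA/2J minus AKR/J passed for 1.56% in sleep-deprived brain, 1.59% in brain controls, 5.16% in sleep-deprived liver and 4.21% in liver controls.

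Cirbp and 1422660_at were also compared in how far they moved on the same arrays. In brain the change of Cirbp minus that of 1422660_at was 0.02 (exact permutation test within strains, p = 0.745). In liver it was -0.32 (exact permutation p = 0.0597, 0.0796 adjusted over the 4 comparisons), made up of -0.81 for C57BL/6J, -0.41 for AKR/J and 0.26 for DBA/2J, so neither tissue gave a difference past the threshold. Relations were taken over the 9 arrays of a condition, which pool the strains, and arrays were permuted across strains. Strain means were not removed, so strain levels and variation between pools cannot be told apart in them. The strongest relation was that in brain controls, where Pearson's r was 0.78 (exact permutation p = 0.0133, 0.106 adjusted over 8 relations) and Spearman's rho 0.73 (exact p = 0.0311, 0.249 adjusted). It was 0.50 without the 2 arrays farthest from the median of Cirbp. In sleep-deprived brains r was 0.61 (exact p = 0.0968) and 0.06 without the 2 farthest arrays, with a rho of 0.05, and in liver it was -0.15 under sleep deprivation and 0.18 in controls. None of the 8 relations, which include those between both Rbm3/Rbm3-ps probe sets, passed after adjustment.

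**Figure D4:**
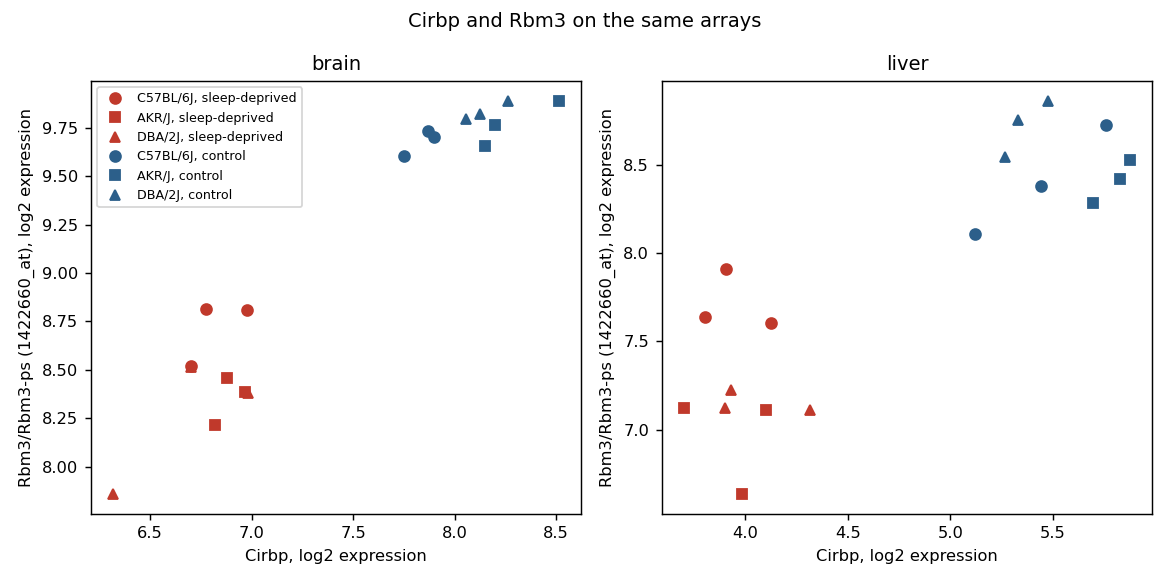
Cirbp (horizontal) against Rbm3/Rbm3-ps 1422660_at (vertical) on the same arrays, log2 expression, in brain (left) and liver (right); each point is an array, red for sleep-deprived and blue for control, with a symbol per strain. The conditions form 2 separate clouds in each tissue, and within a cloud no relation passed after adjustment (r = 0.78 in brain controls, 0.106 adjusted p).

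The genes with the most similar pattern were found by the root mean square difference (RMS, log2) between a gene's values and those of the member over the 18 arrays of a tissue, each centred on its mean. In brain 1422660_at was itself at 0.19 from Cirbp. The nearest other genes to Cirbp were Opalin, a myelin protein of oligodendrocytes, at 0.29, Dbp, a clock output transcription factor, at 0.31, Zfp810 at 0.35, 2900055J20Rik at 0.38 and Parn, a poly(A) ribonuclease, at 0.39. Opalin was also nearest to 1422660_at, at 0.26, before Zfp810, the transferrin receptor Tfrc and Dbp at 0.40 each and Fbxl4 at 0.41. Cirbp and 1422660_at were thus closer to each other in brain than Cirbp was to any of these genes. The RMS also depends on the size of a change, and these probe sets had the largest falls in brain. Their closeness is therefore not separate from the size of their falls. In liver 1422660_at was at 0.40 from Cirbp. The next were Ugt2b35, a glucuronosyltransferase, at 0.45, Wdr6 at 0.48, Arl2bp at 0.52 and D130043K22Rik and Zfp810 at 0.54 each. For 1422660_at in liver they were Arl2bp at 0.32, Ugt2b35 at 0.40, Chpf2 and the RNA-binding protein gene Hnrnpd at 0.46 each and Smoc2 at 0.47. Arl2bp and, slightly, Ugt2b35 (0.399) were thus nearer to 1422660_at in liver than Cirbp was (0.403). Zfp810 was on the list of Cirbp in both tissues, and fell by 0.69 in brain (adjusted p = 0.0008812) and by 0.68 in liver (adjusted p = 0.002035).

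Lists of genes around Cirbp and Rbm3 were counted next, against 173 of 18193 genes (0.951%) higher and 291 (1.6%) lower in brain, and 540 (2.97%) higher and 347 (1.91%) lower in liver. Heat-induced chaperones, targets of the heat shock factor HSF1, rose while Cirbp fell. In brain 17 of 19 measured rose and 0 fell, with a median change of 0.38, against -0.01 over all genes. Hspa1b, an inducible HSP70, rose by 1.43 ± 0.15, the small heat shock protein Hspb1 by 0.95 ± 0.08, the HSP90 co-chaperone Chordc1 by 0.70 ± 0.07 and Hsph1, an HSP70 nucleotide exchange factor, by 0.55 ± 0.05. In liver 14 of 19 rose and 0 fell, with a median of 0.66, against -0.02 over all genes. Hsph1 rose by 1.88 ± 0.08, Hspa1b by 1.65 ± 0.27, Hspb1 by 1.17 ± 0.12 and the HSP90 gene Hsp90aa1 by 1.02 ± 0.06.

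A list of rhythmic genes known in mouse liver to follow systemic cues such as temperature or hormones shares members with the chaperones. In brain 7 of 12 measured rose and 0 fell (median 0.32), all 7 of them chaperone or co-chaperone genes, such as Hspa1b and Chordc1. In liver 11 of 12 rose and 0 fell (median 0.92). Beside Hsph1 and Hspa1b, Hspa8 rose by 1.01 ± 0.05 and Chordc1 by 0.99 ± 0.06. The others include the clock gene Per1 (0.45 ± 0.09), Noct (0.94 ± 0.16) and the glucocorticoid-induced Fkbp5 (0.92 ± 0.12). The exception was Per2, at 0.28 ± 0.11 (adjusted p = 0.2114).

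On a list of cold shock domain proteins, whose fold is unrelated to that of CIRBP, 0 of 8 genes passed the threshold in either tissue; 1 of the 8, the helicase gene Dhx36, encodes a protein without that domain. The largest changes were those of Ybx1 in brain, 0.10 ± 0.05 (adjusted p = 0.5195), and Ybx3 in liver, 0.24 ± 0.09 (adjusted p = 0.1634). Of 15 RNA-binding relatives with an RNA recognition motif, 3 fell and 0 rose in brain, namely Hnrnpdl by 0.46 ± 0.05, Rbmx by 0.27 ± 0.05 and Hnrnpa0 by 0.22 ± 0.04 (median of the list -0.13). In liver Hnrnpd fell by 0.61 ± 0.06 and Hnrnpdl by 0.29 ± 0.06, and Tardbp rose by 0.30 ± 0.08 (median -0.08). The falls of these relatives were smaller than those of Cirbp and 1422660_at.

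Of 15 CLK kinases and SR proteins, which act in temperature-dependent splicing, Srsf6 (0.43 ± 0.06) and Clk1 (0.25 ± 0.06) rose and 0 fell in brain, and Srsf4 (0.29 ± 0.07) rose and 0 fell in liver. Of 18 genes reported as regulators, targets or receptors of CIRBP and RBM3, 0 passed in either tissue. The largest values were those of Hif1a, the hypoxia-inducible factor, at -0.15 ± 0.07 in brain (adjusted p = 0.4277), and Tlr4, a receptor of extracellular CIRBP, at -0.18 ± 0.08 in liver (adjusted p = 0.2825). Clock, whose transcripts CIRBP binds, was at 0.05 ± 0.06 in brain (adjusted p = 0.8208) and 0.15 ± 0.07 in liver (adjusted p = 0.2871). Sp1, which binds the GC box, was at -0.09 ± 0.07 in brain (adjusted p = 0.6836) and 0.02 ± 0.06 in liver (adjusted p = 0.9408). Rtn3, whose transcripts RBM3 binds in the mouse brain, was at -0.05 ± 0.04 in brain (adjusted p = 0.7258).

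**Figure D5:**
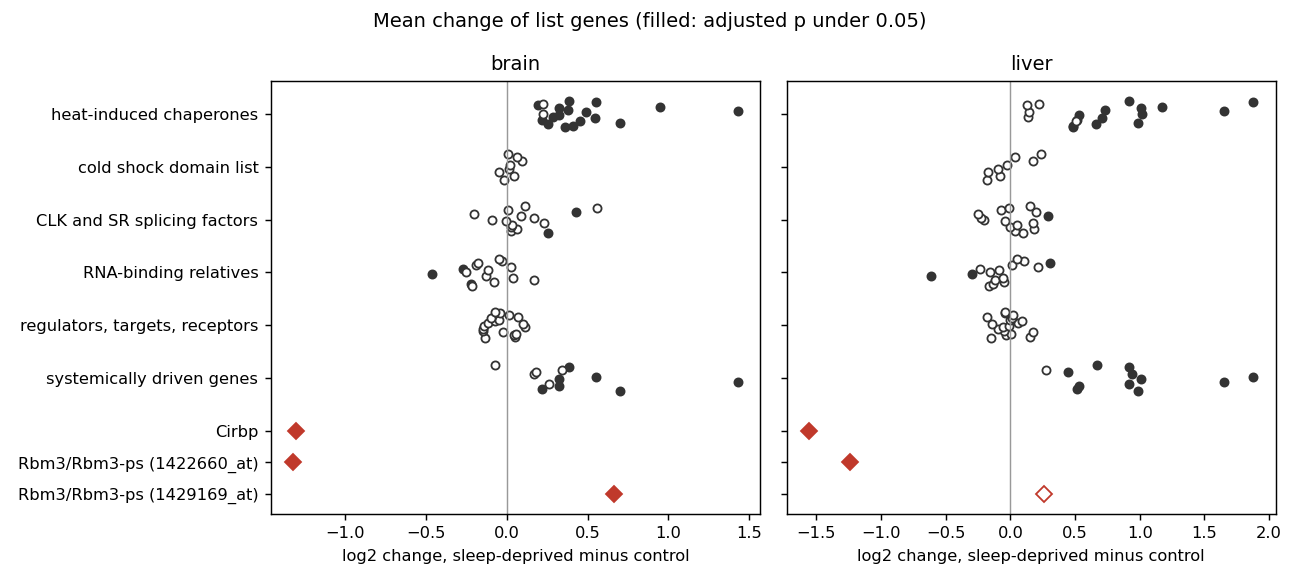
Mean change over 3 strains (log2, sleep-deprived minus control) of the genes of 6 lists (circles, a gene each by its brightest probe set) and of the 3 members (red diamonds) in brain (left) and liver (right); filled symbols passed the threshold. Cirbp and 1422660_at lie to the left of every listed gene in both tissues, and the heat-induced chaperones lie to the right of 0.

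Markers of cell types moved with the members in part. In brain 2 of 10 oligodendrocyte markers fell, Opalin by 0.95 ± 0.05 and Aspa by 0.54 ± 0.07, and 0 rose, each gene being represented by its brightest probe set. Counted by any probe set of a gene, 3 fell and 2 rose. The mean level of the 10 was 9.21 to 9.62 in sleep-deprived arrays, against 9.54 to 9.79 in controls, and was lower in the sleep-deprived arrays without overlap within each strain. This mean includes Opalin and Aspa, while the other 8 markers did not pass by their brightest probe sets. The part of this mean level in the falls of Cirbp and 1422660_at was not tested. Of 10 astrocyte markers 1 rose in brain. Pituitary markers varied widely between brain arrays, at 4.33 to 7.86 under sleep deprivation, against 4.60 to 8.56 in controls, and 0 of 7 passed. In AKR/J they were higher in the sleep-deprived arrays without overlap, at 5.96 to 6.91, against 4.60 to 4.81 in controls, and their part in the AKR/J values was not tested. In liver 3 of 8 endothelial markers rose (Flt1 by 0.45 ± 0.06, Pecam1 by 0.42 ± 0.09 and Tek by 0.36 ± 0.07), with a mean level of 5.49 to 5.74 under sleep deprivation, against 5.13 to 5.62 in controls. Of 9 hepatocyte markers 1 rose, Tat, by 0.83 ± 0.11, with mean levels of 13.83 to 14.04 under sleep deprivation, against 13.68 to 13.89 in controls. Within each strain this mean, which includes Tat, was higher in the sleep-deprived arrays without overlap. Lower in liver were 1 of 8 Kupffer cell and lymphocyte markers and 1 of 11 neuronal markers. The part of these markers in the liver results was not tested.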

How the data were processed

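The deposited log2 values came from RMA, which the submitters' processing notes name without a version. RMA forces arrays that are processed together into the same distribution, so a change of most genes at once would not be seen, and differences of weakly expressed genes come out too small. Array medians differ between brain and liver, so the tissues appear to have been normalised apart. Nothing was normalised further. The number of arrays limits the precision.

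The array holds 45101 probe sets, and its 64 controls were dropped. Gene names came from the platform annotation, updated by gene identifier through RefSeq's table for GRCm38.p6. Of the 45037 tested, 34945 had 1 gene (34741 matched), 932 several and 9160 none, and 18193 genes were each represented by the probe set with the highest mean in the tissue. The promoter window is RefSeq's, for GRCm38.p6; a window for Rbm3 was not used here.

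Limma 3.58.1 (R 4.3.3) fitted 6 group means to the 18 arrays of each tissue, and liver minus brain over 36 arrays; tests are two-sided with Benjamini-Hochberg adjustment over all tested probe sets. Exact permutation tests (Python 3.11.15) of unequal changes were run within strains. Those of relations permuted the 9 arrays of a condition across strains. On simulated data with the real spread, the mean effect recovered 92% of changes of 0.6 in brain and 98% in liver, and 40% and 38% of changes of 0.3. The members, gene lists and the rule for named genes were chosen with earlier results of these data known. That rule named all members, the 5 genes of the most similar pattern, up to 4 genes of a list with the largest change among those that passed (the 1 with the largest change where none passed) and markers that moved with a member. Clock, Sp1, Rtn3, Per1, Per2, Noct and Fkbp5 were named outside it, after their values were seen. Alternatives left out single arrays, arrays that stood apart, AKR/J or its controls of conflicting time label, and changed the scaling, variance prior, weights, filter and fit.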

Additional observations from a re-analysis of the deposited data

How the results depend on the processing

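The mean falls of Cirbp and 1422660_at kept their direction and passed under all 28 alternatives in brain (-1.38 to -1.22 for Cirbp) and all 26 in liver (-1.61 to -1.40 for Cirbp), and no interaction of a member passed under any. The labels do not say that the numbers of the arrays pair them. Same-numbered sleep-deprived and control arrays had deviations with correlations of -0.42 to 0.41 in brain (4 of 9 over 0.1) and -0.12 to 0.22 in liver (1 of 9). With 3 arrays a group, these values cannot decide whether pools were paired. With the replicate block Cirbp was -1.30 in brain (adjusted p = 2.758e-07) and -1.56 in liver, 610 probe sets passed in brain and 1578 in liver, and the block changed no call of a member. The mean rise of 1429169_at in brain was lost when AKR/J was left out (0.66). Its rises in single strains passed with array weights (0.73 for C57BL/6J, 0.76 for AKR/J and 0.82 for DBA/2J), without the arrays of narrow spread (0.91 in C57BL/6J and 0.74 in AKR/J) and without all 5 doubted brain arrays, a setting added after the data were seen (0.74 in AKR/J and 0.82 in DBA/2J). The falls in C57BL/6J brain were lost when AKR/J was left out (-1.02 for Cirbp, -0.96 for 1422660_at), without the arrays whose 3' to 5' difference was raised (-1.07 and -1.002) or with only the compared groups in the fit (-1.02 and -0.96), where the Cirbp fall in DBA/2J, -1.48, was lost too; these fits hold fewer arrays. The fall of 1422660_at in C57BL/6J liver did not pass with each array's median subtracted (-0.66), and, at -0.69, without the AKR/J controls whose labels conflict, with AKR/J left out or with only the compared groups. Liver minus brain passed for 1429169_at with array weights (-0.52), without the arrays of narrow spread (-0.53) and without all 6 doubted arrays (-0.61), and for 1422660_at after quantile normalisation of all 36 arrays together (0.40); the cause was not tested. Among strain differences in brain, AKR/J minus C57BL/6J passed for Cirbp in controls with array weights (0.38) and without the arrays of narrow spread (0.45), and for 1422660_at under sleep deprivation with array weights (-0.49), without the arrays of narrow spread and without the 5 doubted arrays (-0.51 each); DBA/2J minus C57BL/6J of 1422660_at passed with array weights (-0.36). Small differences that did not pass changed sign: for 1422660_at, DBA/2J minus AKR/J in brain, to 0.13 with array weights and 0.14 without the narrow or the doubted arrays under sleep deprivation and to -0.055 without the conflicting controls in controls; for 1429169_at, AKR/J minus C57BL/6J, to -0.023 in brain controls and 0.11 in liver controls without the conflicting controls, and to -0.072 in sleep-deprived brain without the narrow or the doubted arrays. With single arrays left out, results that changed side or sign ranged as follows. In C57BL/6J brain Cirbp was -1.10 to -0.97 and 1422660_at -1.01 to -0.87, and in AKR/J brain 1429169_at was 0.60 to 0.75. In C57BL/6J liver 1422660_at was -0.84 to -0.53, and in DBA/2J liver 1429169_at was -0.24 to 0.011. In sleep-deprived brain AKR/J minus C57BL/6J was -0.15 to 0.33 for 1429169_at, DBA/2J minus C57BL/6J was -0.31 to 0.024 for Cirbp, -0.60 to -0.27 for 1422660_at and -0.022 to 0.46 for 1429169_at, and DBA/2J minus AKR/J was -0.24 to 0.091 for 1422660_at; in brain controls AKR/J minus C57BL/6J was 0.33 to 0.52 for Cirbp. In sleep-deprived liver AKR/J minus C57BL/6J was -0.10 to 0.10 for Cirbp and -0.25 to 0.15 for 1429169_at, DBA/2J minus C57BL/6J was -0.029 to 0.19 for Cirbp and -0.62 to -0.47 for 1422660_at, and DBA/2J minus AKR/J was -0.013 to 0.21 for Cirbp; in liver controls AKR/J minus C57BL/6J was -0.14 to 0.17 for 1422660_at and DBA/2J minus C57BL/6J -0.24 to 0.076 for Cirbp. The number of probe sets past the threshold moved more than the members: against 778 in brain it was 3965 with array weights, 1866 without the 5 doubted arrays, 1747 without the narrow ones, 499 with medians subtracted, 479 without AKR/J control array 1, 439 without those of raised 3' to 5' difference, 300 without the conflicting controls and 85 with AKR/J left out, and against 1622 in liver it was 982 without the conflicting controls and 783 with AKR/J left out. In single strains it was 0 to 774 for C57BL/6J brain (17 as reported), 7 to 1541 for AKR/J brain (135) and 9 to 559 for DBA/2J brain (47), and as few as 108 for C57BL/6J liver (277), 58 to 393 for AKR/J liver (320) and 39 to 459 for DBA/2J liver (283). Counting a list gene by any of its probe sets gave, in brain, 1 fall of a CLK or SR gene, 3 falls and 2 rises of oligodendrocyte markers, 8 rises of systemically driven genes and 1 fall of a Kupffer cell or lymphocyte marker, and in liver 3 rises of CLK or SR genes, 3 rises and 3 falls of RNA-binding relatives, 2 rises of regulators and targets and 2 of astrocyte markers. Keeping only probe sets above the median level removed 1429169_at in brain, so it has no value there. Small changes are limited by 3 arrays a group. For the mean effect over all strains, a change of 0.3 was recovered for 40% of simulated probe sets in brain. Recovery of a change in a single strain was not simulated.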
